A study of Rattus norvegicus with 15 samples.

Results

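Interferon-induced genes were followed in rat retina from the end of the night into 3 and 6 hours of light or of continued darkness. The 9 genes were *Mx1*, *Mx2*, *Ifitm1*, *Ifitm3*, *Isg15*, *Ifit3*, *Irf1*, *Irf7* and *Irf9*. They were represented by the 11 probe sets whose array annotation names exactly 1 of these symbols. The arrays held 31042 probe sets that are not controls and 14217 single gene symbols. A probe set is a group of short probes on the array that together measure a transcript. The genes were chosen on measured values, because *Mx2* and *Ifitm1* were lower than at 0 ZT in darkness as well as in light, so every difference of these 9 genes from 0 ZT is given here as a description with no test.

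The retinas came from Long-Evans rats, adult males 3 months of age, kept in the dark overnight, and were hybridised to 15 Affymetrix arrays, 3 for each of 5 conditions. Retinas of 0 ZT dark were collected at 7 am, those of 3 ZT at 10 am and those of 6 ZT at 1 pm, with ZT being the hours since the usual start of the light phase. At 3 and 6 ZT the animals had either stayed in darkness or been exposed to light of 1000 lux. For 6 ZT light, the sample titles and the study's methods give 6 hours of light, whereas the source labels of the same samples give 3 hours at 1 pm. All animals shared the night in darkness, and the 0 ZT dark retinas were the common control of all 4 later conditions. The labels do not say whether retinas of several animals were pooled on an array, so the p-values rest on the spread between arrays that may be technical. Values are log2 expression values, in which 1 unit is a 2-fold difference.

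Interferons are secreted proteins by which infected or stressed cells alert their neighbours. Binding to their receptors activates Janus kinases and STAT proteins. STAT dimers bind GAS elements, whereas a complex that contains *Irf9* binds ISRE elements, and the genes beside these elements are transcribed. The products include antiviral proteins (the Mx GTPases, the Ifitm membrane proteins, *Ifit3* and the ubiquitin-like *Isg15*) and transcription factors that carry the response on (*Irf1*, *Irf7*). In the retina, microglia, Müller glia and vessel endothelium are among the cells that can respond to interferons. In bulk RNA, fewer cells of a type and less RNA per cell cannot be told apart.

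RefSeq (build GRCr8) places 4 of the genes on chromosome 1. *Ifitm1* (205496757 to 205498796), *Ifitm3* (205540649 to 205541758) and *Irf7* (205796956 to 205800543) lie close together there, and *Ifit3* (241527326 to 241532469) lies further along. *Mx1* (50269056 to 50294699) and *Mx2* (50375101 to 50399373) are neighbours on chromosome 11. *Irf1* lies on chromosome 10 (38417935 to 38424946), *Irf9* on chromosome 15 (33065422 to 33071881) and *Isg15* on chromosome 5 (172066369 to 172067656).

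A RefSeq promoter was held for 6 of the 9 genes in the table used here, and *Mx2*, *Ifitm1* and *Isg15* had none. The promoters below are shown because they carry the letters of the elements through which interferons act, and each runs from 150 bases before to 50 bases after the transcription start in that table. Capitals mark a match to the ISRE core GAAANNGAAA on either strand or to the GAS core TTCNNNGAA, which is its own reverse complement.
*Ifitm3*, chr1:205541709-205541908, reverse strand: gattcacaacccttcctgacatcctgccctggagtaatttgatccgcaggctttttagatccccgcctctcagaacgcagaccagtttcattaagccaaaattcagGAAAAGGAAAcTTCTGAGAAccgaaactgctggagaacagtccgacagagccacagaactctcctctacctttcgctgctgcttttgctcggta
*Irf7*, chr1:205799974-205800173, reverse strand: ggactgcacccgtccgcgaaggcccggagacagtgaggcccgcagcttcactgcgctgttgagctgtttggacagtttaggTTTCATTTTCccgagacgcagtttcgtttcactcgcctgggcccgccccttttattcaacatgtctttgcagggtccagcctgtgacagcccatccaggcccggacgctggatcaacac
*Ifit3*, chr1:241527176-241527375, forward strand: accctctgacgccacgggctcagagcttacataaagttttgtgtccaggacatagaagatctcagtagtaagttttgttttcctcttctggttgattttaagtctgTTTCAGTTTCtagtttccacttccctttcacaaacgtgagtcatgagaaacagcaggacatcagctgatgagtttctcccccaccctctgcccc
*Irf1*, chr10:38417785-38417984, forward strand: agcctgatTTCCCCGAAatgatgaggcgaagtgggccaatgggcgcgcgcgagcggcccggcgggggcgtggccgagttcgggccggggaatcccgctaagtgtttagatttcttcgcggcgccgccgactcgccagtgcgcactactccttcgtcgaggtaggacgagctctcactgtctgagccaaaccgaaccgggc
*Irf9*, chr15:33065686-33065885, forward strand: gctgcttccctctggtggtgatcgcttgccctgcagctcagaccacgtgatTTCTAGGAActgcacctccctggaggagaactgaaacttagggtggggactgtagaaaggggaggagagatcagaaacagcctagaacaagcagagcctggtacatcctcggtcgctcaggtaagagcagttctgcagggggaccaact

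The ISRE core was found in 3 of the 6 promoters, those of *Ifitm3* (first base at −44 from the start), *Irf7* (−69) and *Ifit3* (−44). The GAS core was found in 3 of the 6 as well, those of *Ifitm3* (−33), *Irf1* (−142) and *Irf9* (−99). In *Ifitm3* the ISRE core and the GAS core followed each other without overlap. In the promoter of *Mx1* neither core was present. The search covered the whole window of the table, from 250 bases before to 50 bases after the start, and in the same window of all 33469 promoters 3.92% held the ISRE core and 8.87% the GAS core. A match is a description of the letters only.

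The arrays carried the profile of retina. The photoreceptor genes *Sag* and *Gnat1* had mean log2 values of 15.39 and 15.37, at the upper end of all probe sets. The array medians depended on the replica number, with 8.28 to 8.32 in replica 1, 8.58 to 8.68 in replica 2 and 8.74 to 8.8 in replica 3, so conditions were compared within a replica number. The 0 ZT dark array of replica 1 and the 3 ZT light array of replica 2 stood apart in the difference between the 3′ and 5′ control probe sets of *Actb*, which is read as a sign of RNA integrity. It was 2.1 and 2.4 log2 units in these arrays and 0.708 to 1.37 in the other 13. Values of the 9 genes and of the gene lists without both arrays are given after those with them.

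*Mx2*, a GTPase that restricts viruses in the cytoplasm, had its highest values at 0 ZT. Its brighter probe set (1369202_at) read 8.06, 8.63 and 8.31 in replicas 1 to 3 at 0 ZT dark, and 7.16, 7.36 and 7.15 at 3 ZT dark. At 3 ZT light the values were 7.49, 8.03 and 7.52. The lowest array of 0 ZT dark, at 8.06, lay just above the highest later array, at 8.03. For this and the following genes the share of all probe sets without such overlap was not counted. As the genes were chosen on this fall, nothing is read from it. At 6 ZT dark the values were 7.47, 7.33 and 5.42, and at 6 ZT light they were 7.49, 8.01 and 6.91. The replica 3 array of 6 ZT dark was the lowest of all 15 and lay apart from the other arrays of its condition.

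As ratios to the 0 ZT dark array of the same replica, *Mx2* stood at 0.465 ± 0.0618 (SD, n = 3) at 3 ZT dark and at 0.401 ± 0.264 at 6 ZT dark. It stood at 0.639 ± 0.0536 at 3 ZT light and at 0.568 ± 0.165 at 6 ZT light. Every one of these 12 ratios was below 0.7, the limit that the study set for down-regulation. The mean log2 difference at 6 ZT dark was −1.60, and it was −1.04 when the replica 3 array was left out. At 3 ZT light it was −0.65, and −0.40 without the 0 ZT dark array of replica 3. The dimmer probe set of *Mx2* (1387283_at) lay lower than 0 ZT on average in all 4 later conditions too, by less. It ranged from 6.95 to 7.65 at 0 ZT dark, from 6.87 to 7.40 at 3 ZT dark and from 6.95 to 7.55 at 6 ZT dark. Within replicas 1 to 3 it differed from 0 ZT by −0.08, −0.55 and −0.25 at 3 ZT dark and by 0, −0.36 and −0.10 at 6 ZT dark. Its mean log2 differences from 0 ZT were between −0.31 and −0.15, and the deviations of both probe sets from their replica means correlated with r = 0.235 over the 15 arrays.

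**Figure D1:**
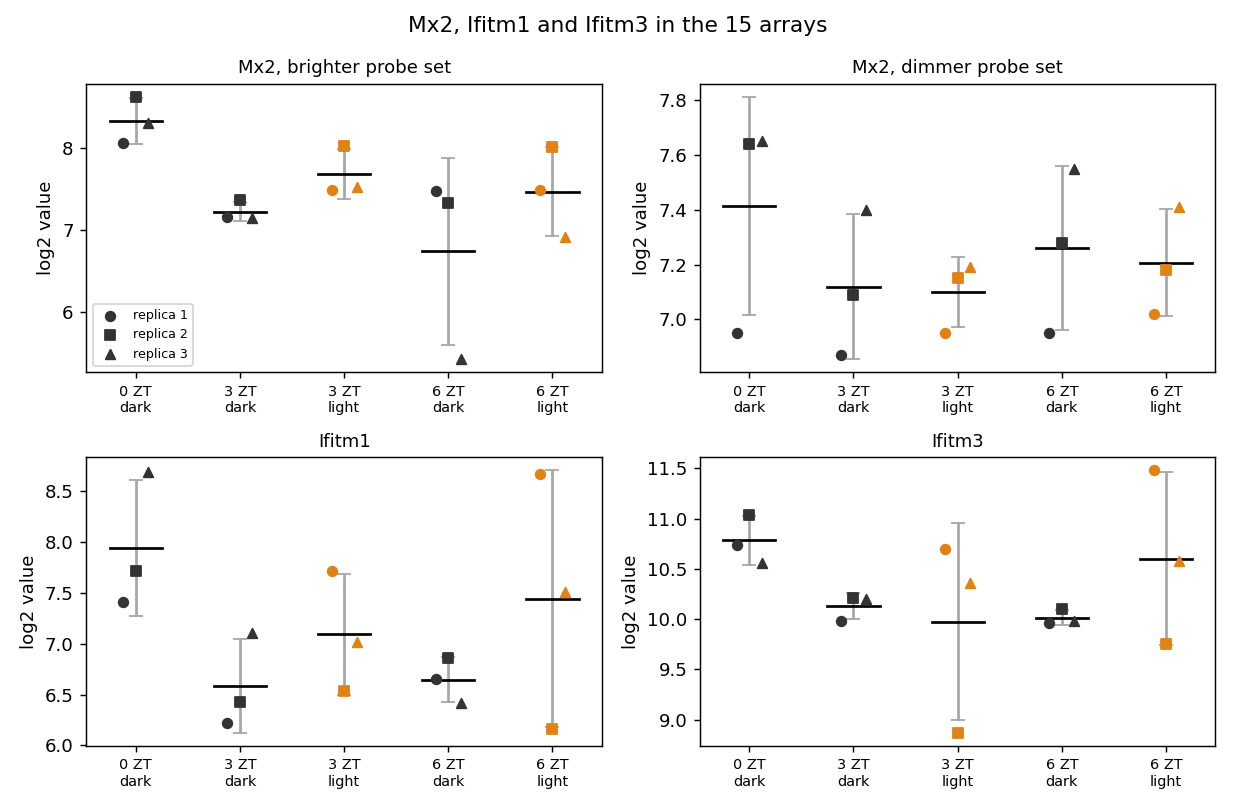
Log2 values of both *Mx2* probe sets, *Ifitm1* and *Ifitm3* in the 5 conditions (dark in black, light in orange), with each point an array, its shape the replica number, the black line the mean and the grey bar the SD of 3 arrays. The brighter *Mx2* probe set lies above 8 in all 3 arrays of 0 ZT dark and, among later arrays, in replica 2 in light. *Ifitm3* lies between 9.96 and 10.21 in the later dark arrays, whereas *Ifitm1* and *Ifitm3* spread widely in light.

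*Ifitm1*, a membrane protein that hinders viruses from entering cells, was lower in both later dark conditions than at 0 ZT. It read 7.41, 7.72 and 8.69 at 0 ZT dark, 6.22, 6.43 and 7.11 at 3 ZT dark and 6.65, 6.86 and 6.42 at 6 ZT dark. No later dark array reached the lowest value of 0 ZT dark. In light the arrays of a condition were far apart, with 7.72, 6.54 and 7.02 at 3 ZT and 8.67, 6.16 and 7.51 at 6 ZT. The ratio to 0 ZT was 0.394 ± 0.055 at 3 ZT dark and 0.451 ± 0.211 at 6 ZT dark (SD, n = 3). It was 0.667 ± 0.504 at 3 ZT light and 1.06 ± 1.16 at 6 ZT light, where replica 1 stood at 2.40 and the other two replicas at 0.339 and 0.440. In light, then, replica 1 was above its 0 ZT array and replicas 2 and 3 were below theirs.

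*Ifitm3*, which blocks the fusion of viruses with endosomal membranes, lay in every later dark array below all those of 0 ZT. It read 10.74, 11.04 and 10.56 at 0 ZT dark, 9.98, 10.21 and 10.20 at 3 ZT dark and 9.96, 10.10 and 9.98 at 6 ZT dark. At 3 ZT light it read 10.70, 8.87 and 10.36, the lowest value being that of the array with the large *Actb* difference. At 6 ZT light it read 11.48, 9.75 and 10.58, which is higher than every dark array of its time in replicas 1 and 3 and lower in replica 2. The ratio to 0 ZT was 0.644 ± 0.118 at 3 ZT dark and 0.589 ± 0.0725 at 6 ZT dark, against 0.687 ± 0.406 at 3 ZT light and 1.03 ± 0.625 at 6 ZT light (SD, n = 3). At 3 ZT dark, *Ifitm3* was just outside the limit of 0.7 because replica 3 stood at 0.779. Without the 0 ZT dark array of replica 2, the highest of all dark arrays, the mean log2 difference went from −0.65 to −0.30 at 3 ZT dark and from −0.77 to −0.42 at 6 ZT dark.

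*Isg15*, the ubiquitin-like protein that is joined to other proteins in the response, read 8.32, 8.80 and 8.37 at 0 ZT dark. The later dark values were 7.96, 8.22 and 8.04 at 3 ZT and 7.72, 8.09 and 8.17 at 6 ZT, all below the lowest value of 0 ZT. In light the values were 8.32, 7.71 and 7.84 at 3 ZT and 8.51, 8.11 and 7.82 at 6 ZT. Its ratio to 0 ZT was 0.748 ± 0.0696 at 3 ZT dark, 0.714 ± 0.136 at 6 ZT dark, 0.721 ± 0.264 at 3 ZT light and 0.812 ± 0.282 at 6 ZT light (SD, n = 3). The mean log2 difference went from −0.42 to −0.27 at 3 ZT dark without the 0 ZT dark array of replica 2, and from −0.50 to −0.31 at 6 ZT dark without the dark array of replica 1 of that hour. Replica 1 stayed within 0.18 log2 units of its 0 ZT array in light, and the other replicas were lower.

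*Ifit3*, a partner of the RNA-binding Ifit proteins, was dim, and 1 array set its course. It read 5.34, 5.95 and 7.72 at 0 ZT dark, and 5.34, 6.08 and 6.44 at 3 ZT dark. At 6 ZT dark it read 5.34, 5.71 and 6.27, so that replica 1 held the same value in all 3 dark conditions. Its mean log2 difference at 3 ZT dark was −0.38 and became 0.04 without the 0 ZT dark array of replica 3. In light it read 5.13, 5.40 and 6.31 at 3 ZT and 5.68, 5.74 and 6.39 at 6 ZT. *Mx1*, the nuclear relative of *Mx2* in rodents, was dim too, at 5.02 to 6.31 over the 15 arrays. No detection calls were used, so it was not established whether these probe sets were above background.

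The interferon regulatory factors varied less. *Irf1*, which is induced through GAS elements, ranged from 9.16 to 9.80 over the 15 arrays. *Irf7*, which amplifies the transcription of type I interferons, ranged from 8.42 to 9.26. *Irf9*, the DNA-binding subunit of the complex on ISRE elements, ranged from 8.41 to 9.40 by its brighter probe set (1383448_at) and from 8.33 to 9.05 by the dimmer (1374627_at). The mean differences of these factors from 0 ZT lay between −0.22 and 0.05 in log2 units in all 4 later conditions. At 3 ZT dark all 3 factors were below their 0 ZT array in every replica, *Irf1* by −0.06, −0.03 and −0.35 in replicas 1 to 3, *Irf7* by −0.13, −0.18 and −0.21 and *Irf9* by −0.24, −0.14 and −0.16. At 6 ZT light the replicas of each factor, *Irf9* by its brighter probe set, lay on both sides of 0. The *Irf9* probe sets moved together, with r = 0.736 over the 15 arrays.

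**Figure D2:**
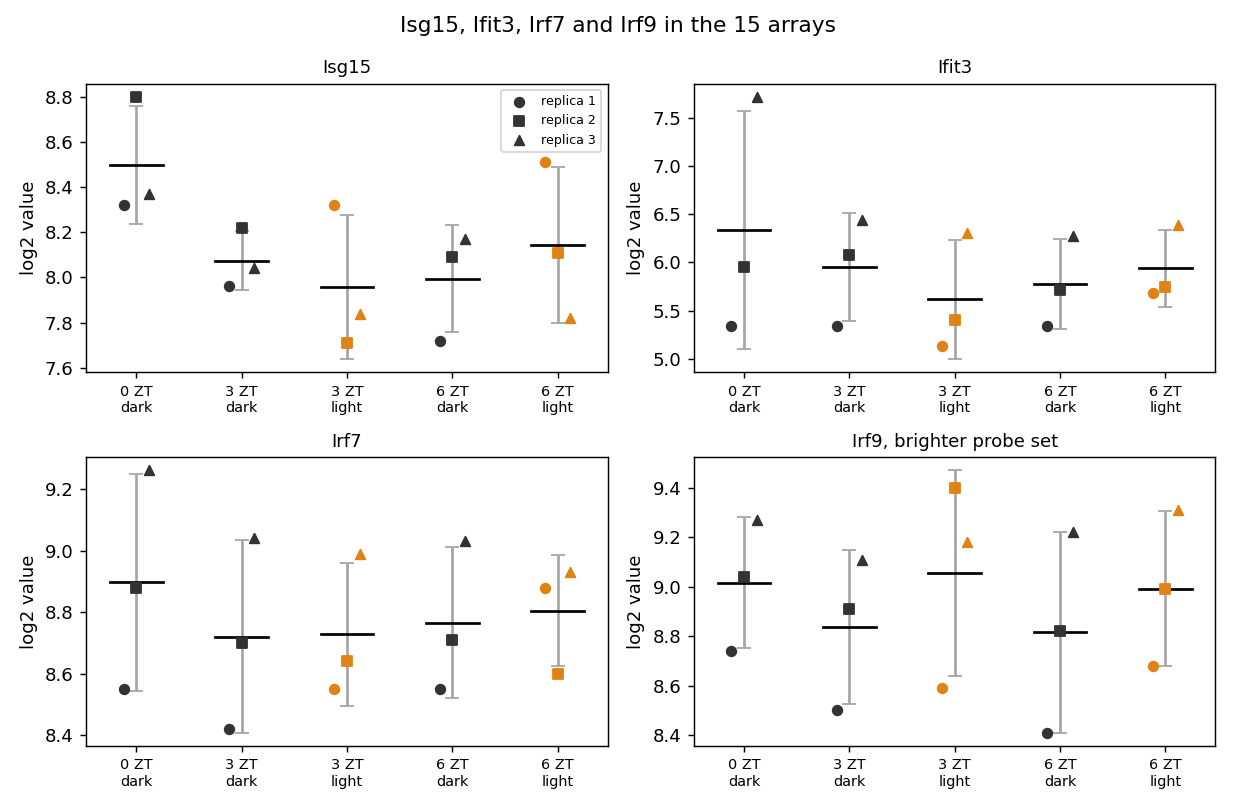
Log2 values of *Isg15*, *Ifit3*, *Irf7* and *Irf9* in the 5 conditions (dark in black, light in orange), with each point an array, its shape the replica number, the black line the mean and the grey bar the SD of 3 arrays. The 0 ZT dark array of replica 3 stands apart for *Ifit3* at 7.72, and *Irf7* and *Irf9* lie below 0 ZT in every replica at 3 ZT dark.

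Counted over the genes, with the brightest probe set of each, all 9 were lower on average at 3 ZT dark than at 0 ZT, with a median log2 difference of −0.38. At 6 ZT dark 8 of 9 were lower (median −0.50), at 3 ZT light 8 of 9 (median −0.54) and at 6 ZT light 8 of 9 (median −0.21). The median over all 31042 probe sets lay between −0.01 and 0.01 in each case. These comparisons share the 0 ZT dark arrays, and without the replica 3 array of 0 ZT dark the medians were −0.19 at 3 ZT dark, −0.21 at 6 ZT dark and −0.30 at 3 ZT light. At 6 ZT light the median was −0.56 without the replica 1 light array and −0.01 without that of replica 2. Lower in all 3 replicas were 10 of the 11 probe sets at 3 ZT dark (8.52% of all probe sets), 6 at 6 ZT dark (15.1%), 5 at 3 ZT light (11%) and 2 at 6 ZT light (9.38%). Below 0.7 in all 3 replicas were *Mx2* and *Ifitm1* at 3 ZT dark (0.0161% of all probe sets) and *Mx2*, *Ifitm1* and *Ifitm3* at 6 ZT dark (0.287%). At 3 ZT light (0.0741%) and at 6 ZT light (0.0709%) only *Mx2* was. Since the genes were chosen on this contrast, nothing is read from these counts.

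Light was compared with darkness of the same hour with limma, with the replica number as a block and p-values adjusted by Benjamini-Hochberg over all 31042 probe sets. The dark arrays whose low values led to the choice of *Mx2* and *Ifitm1* enter this comparison too. Of the 11 probe sets, 0 passed an adjusted p of 0.05 at 3 ZT, where 0.00322% of all probe sets did, and 0 passed at 6 ZT, where 0% did. At an unadjusted p under 0.05, 0 of the 11 passed at either hour. The background for that was 1.96% higher and 2.64% lower at 3 ZT, and 5.56% higher and 2.97% lower at 6 ZT.

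At 3 ZT the brighter *Mx2* probe set was above darkness by 0.34, 0.68 and 0.37 log2 units in replicas 1 to 3, and the fitted difference was 0.46 (SE 0.36, limma adjusted p = 0.895), or 0.30 without the light array of replica 3. At 6 ZT it was above darkness by 0.03, 0.67 and 1.49, with a fitted difference of 0.73 (SE 0.36, limma adjusted p = 0.592). *Mx2* was thus higher in light in 3 of 3 replicas at both hours, by less than the spread allows to call. Most of the difference at 6 ZT rests on the low dark array of replica 3, since without it the difference was 0.17. The dimmer probe set differed by −0.02 at 3 ZT and by −0.05 at 6 ZT (SE 0.10, limma adjusted p = 0.984 and 0.892).

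The light-dark differences of *Ifitm1* were 1.5, 0.11 and −0.09 at 3 ZT and 2.03, −0.71 and 1.08 at 6 ZT. The fit gave 0.51 at 3 ZT (SE 0.51, limma adjusted p = 0.903) and 0.80 at 6 ZT (SE 0.51, limma adjusted p = 0.659). Higher values in light were therefore seen in 2 of 3 replicas at each hour, the 3 ZT value moved to 0.16 without the replica 1 dark array, and the 6 ZT value moved to 0.15 without the replica 1 light array and to 1.36 without the replica 2 light array. *Ifitm3* had differences of 0.71, −1.35 and 0.16 at 3 ZT and of 1.51, −0.35 and 0.60 at 6 ZT. The fit gave −0.16 at 3 ZT (SE 0.42, limma adjusted p = 0.968), which turned to 0.34 without the 3 ZT light array of replica 2. At 6 ZT it gave 0.59 (SE 0.42, limma adjusted p = 0.691), and 0.21 without the replica 1 light array. Both Ifitm genes kept 1 order of replicas at 6 ZT, replica 1 highest, then 3, then 2.

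*Ifit3* was lower in light in 3 of 3 replicas at 3 ZT, by −0.21, −0.68 and −0.13, and higher in 3 of 3 at 6 ZT, by 0.34, 0.02 and 0.12. Its fitted differences were −0.34 at 3 ZT (SE 0.27, limma adjusted p = 0.895) and 0.16 at 6 ZT (SE 0.27, limma adjusted p = 0.868), and the 3 ZT value was −0.17 without the replica 2 dark array. *Irf9* was higher in light in 3 of 3 replicas at both hours by its brighter probe set, with fitted differences of 0.22 at 3 ZT (SE 0.11, limma adjusted p = 0.895) and 0.18 at 6 ZT (SE 0.11, limma adjusted p = 0.648). The 3 ZT value fell to 0.06 without the replica 2 light array. Its dimmer probe set was higher in 3 of 3 replicas at 6 ZT only. Over all probe sets, 7.71% were higher and 9.43% lower in every replica at 3 ZT, and 17.2% higher and 13.5% lower at 6 ZT. *Isg15* differed by −0.12 at 3 ZT and by 0.15 at 6 ZT (SE 0.21, limma adjusted p = 0.951 and 0.842), with replicas on both sides of 0. *Mx1*, *Irf1* and *Irf7* differed by between −0.07 and 0.16 (limma adjusted p from 0.897 to 0.998). Counted over the 9 genes, 5 were higher in light at 3 ZT (median 0.01) and 8 at 6 ZT (median 0.16), where the median of all probe sets was −0.01. Of all probe sets 49.67% were lower in light at 3 ZT and 51.85% at 6 ZT.

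**Figure D3:**
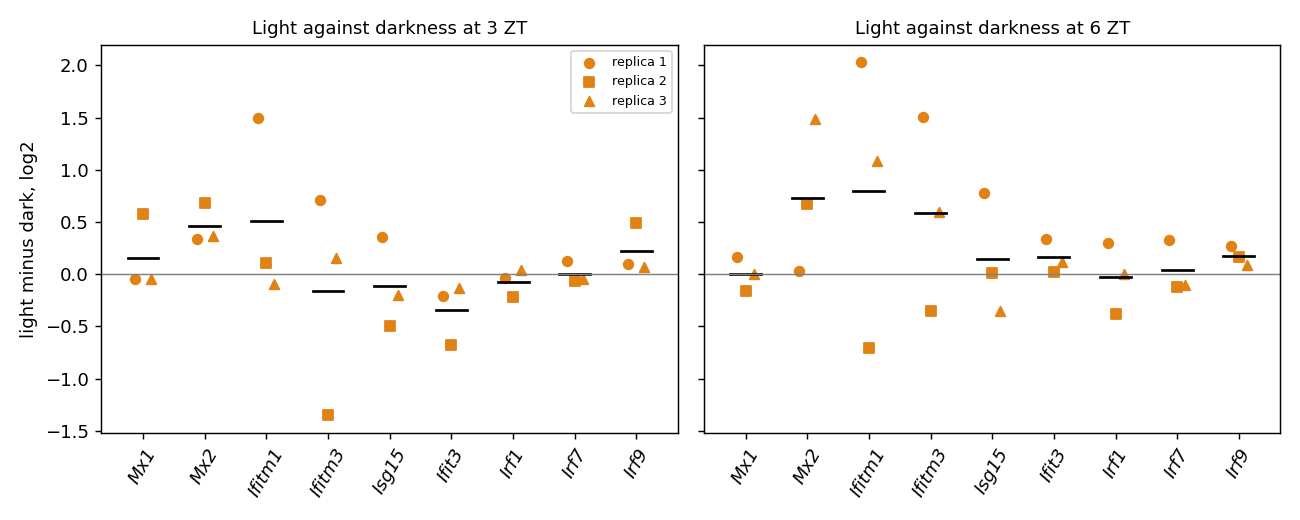
Light minus darkness in log2 units for the brightest probe set of each of the 9 genes at 3 ZT (left) and 6 ZT (right), with each point a replica number and the black line the mean of 3. At 6 ZT *Mx2*, *Ifit3* and *Irf9* lie above 0 in all 3 replicas and *Ifitm1* ranges from −0.71 to 2.03, and 0 of the 11 probe sets passed the test at either hour.

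The light effects of both hours were also compared with each other, and 0 of the 11 probe sets passed at an adjusted p of 0.05 (0% of all probe sets) or at an unadjusted p of 0.05 (4.14% higher and 1.81% lower). The lowest adjusted p was that of *Ifit3*, 0.784 by limma, for a difference of 0.50 (SE 0.38). Between 3 and 6 ZT within darkness, 0 of 11 passed the adjusted threshold (0% of all probe sets) and 0 the unadjusted (2.49% higher and 3.07% lower). In darkness *Mx2* differed by −0.48 (SE 0.36, limma adjusted p = 0.884) and *Ifitm1* by 0.06 (SE 0.51, limma adjusted p = 0.998), and the value of *Mx2* comes from replica 3 alone (0.31, −0.03 and −1.73). Within light, 0 of 11 passed the adjusted threshold (0%) and 0 the unadjusted (6.33% higher and 4.06% lower). *Ifitm3* was higher at 6 than at 3 ZT in light in 3 of 3 replicas (0.78, 0.88 and 0.21), with a fitted difference of 0.62 (SE 0.42, limma adjusted p = 0.540), and lower in darkness in 3 of 3 (−0.02, −0.11 and −0.23).

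Among the 9 genes, the course over the 15 arrays, after the mean of each replica number was subtracted, was shared in part. Over the 36 pairs of genes the median r was 0.403, from −0.326 to 0.847, and 16 pairs were above 0.5. The closest pairs were *Ifitm1* with *Irf7* (0.847), *Ifitm3* with *Isg15* (0.827) and *Ifitm1* with *Ifitm3* (0.747). These are descriptions, since all genes were read from the same 15 arrays and had been chosen together. Over all other genes with a single symbol, the courses most like that of *Mx2* were those of *Ppp1r12c* (r = 0.843), a regulatory subunit of myosin phosphatase, *Tmem221* (0.815), *Iqcc* (0.807) and the trefoil factor *Tff2* (0.804). Those most like *Ifitm1* were *Cd74* (0.895), the invariant chain of MHC class II, *Spef2* (0.874), the cyclin *Ccnd1* (0.872) and *Ppp1r1a* (0.867). Those most like *Ifitm3*, a gene added here after its values were seen, were the cytokine *Tnfsf13* (0.944), *Ifitm2* (0.934), *Ecrg4* (0.915) and *Serpinb6a* (0.913). Of the genes named, *Ifitm2* is on the effector list used here and *Cd74* on the antigen processing list. None of those named as nearest to *Mx2* belongs to the interferon lists. The likeness was taken over the same arrays on which *Mx2* and *Ifitm1* were chosen. How often list genes reach such values of r was not counted, so nothing is read from these names.

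The rest of the pathway was read from 4 lists with 93 of 110 genes measured, each by its brightest probe set. Their differences from 0 ZT come from the same arrays and contrast on which *Mx2* and *Ifitm1* were chosen. List genes that share the course of *Mx2* or *Ifitm1* would be lower there too. The counts and p-values of the lists against 0 ZT are therefore descriptions and no independent support. Of 54 further interferon-induced effectors, 45 were measured. Of these, 37 were lower than at 0 ZT at 3 ZT dark (median −0.10), 38 at 6 ZT dark (median −0.14), 34 at 3 ZT light (median −0.11) and 33 at 6 ZT light (median −0.09). By limma 0 of the 45 passed an adjusted p of 0.05 in any of these 4 comparisons, which 0%, 0%, 0.00322% and 0% of all probe sets did. Over all probe sets 47.6%, 47.4%, 48.7% and 52.3% were lower in the same order. At an unadjusted p under 0.05, 1 was lower at 3 ZT dark (0.776% of all probe sets lower, 0.477% higher). At 6 ZT dark 11 were lower and 1 higher (5.26% and 3.47%). At 3 ZT light 10 were lower and 0 higher (4.43% and 3.25%), and at 6 ZT light 1 was lower and 0 higher (2.26% and 3.92%). The effectors with the smallest p at 6 ZT dark were *Ifi27l2b* with a log2 difference of −0.92 (SE 0.28), *Rtp4*, a chaperone of receptors, with −0.54 (SE 0.17), *Ifi35* with −0.38 (SE 0.12) and the phospholipid scramblase *Plscr1* with −0.86 (SE 0.28), at limma adjusted p from 0.495 to 0.503.

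Of the antigen processing and presentation genes, 17 of 18 were measured, and 14, 11, 12 and 11 were lower than at 0 ZT in 3 ZT dark, 6 ZT dark, 3 ZT light and 6 ZT light, beside the same 47.6%, 47.4%, 48.7% and 52.3% of all probe sets. At 3 ZT light 6 were lower at an unadjusted p under 0.05 and 1 higher (4.43% and 3.25% of all probe sets). At 3 ZT dark, 6 ZT dark and 6 ZT light, 0, 2 and 0 were lower at that threshold (0.776%, 5.26% and 2.26% of all probe sets) and 0, 1 and 1 higher. Without both arrays of the large *Actb* difference these were 3, 7 and 4 lower (1.01%, 5.58% and 3.67%) and 0 higher. At 3 ZT light 12 were lower without both arrays, 3 of them at an unadjusted p under 0.05 (2.94% of all probe sets). With all 15 arrays, the smallest p at 3 ZT light were those of *Psmb8* (−0.43, SE 0.13), *Psme2* (−0.42, SE 0.13), *Psmb9* (−0.55, SE 0.20) and *Psmb10* (−0.37, SE 0.14). They encode subunits and an activator of the immunoproteasome, and their limma adjusted p lay from 0.560 to 0.625. Of the genes of interferon sensing and induction, 15 of 20 were measured. In the same order of conditions 9, 6, 7 and 10 of them were lower than at 0 ZT, with medians of −0.05, 0.02, 0.002 and −0.04. Among these genes *Irf8*, a factor of myeloid cells, had the smallest p at 3 ZT light with −0.40 (SE 0.10, limma adjusted p = 0.456). *Irf3*, which switches on interferon transcription, differed by −0.50 at 6 ZT dark (SE 0.14, limma adjusted p = 0.495). Without both arrays of the large *Actb* difference, 10, 8, 12 and 11 of the 15 sensing genes were lower than at 0 ZT. Their medians were then −0.08, −0.002, −0.06 and −0.09. Of the interferons, receptors and signalling genes, 16 of 18 were measured, and their medians differed from 0 ZT by −0.08 to −0.01. Without both arrays these medians lay from −0.06 to −0.002. The comparisons with 0 ZT share their control arrays, which are also those on which *Mx2* and *Ifitm1* were chosen.

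Between light and darkness of the same hour, 0 genes of these 4 lists passed the adjusted threshold. At 3 ZT 19 of the 45 effectors were higher in light and 26 lower (median −0.04), where 49.67% of all probe sets were lower. At an unadjusted p under 0.05, 0 of them were higher and 0 lower (1.96% and 2.64% of all probe sets). At 6 ZT 28 of the 45 effectors were higher in light and 17 lower (median 0.04), where 51.85% of all probe sets were lower. Of the higher effectors, 3 passed an unadjusted p of 0.05 (5.56% of all probe sets higher), *Dtx3l* with 0.37 (SE 0.11), *Oasl* with 0.25 (SE 0.10) and *Nmi* with 0.26 (SE 0.11), at limma adjusted p from 0.509 to 0.566. Of the 15 sensing and induction genes, 6 were higher and 9 lower in light at 6 ZT (median −0.01). At an unadjusted p under 0.05, 1 was higher and 1 lower (5.56% and 2.97% of all probe sets). Among these genes *Irf3* differed by 0.46 (SE 0.14, limma adjusted p = 0.516). In the fit without both arrays of the large *Actb* difference, *Irf5* differed by −0.26 (SE 0.08, limma adjusted p = 0.424). At 3 ZT 12 of the 17 antigen processing genes were lower in light, as were 49.67% of all probe sets. Of these genes *Psmb8* (−0.33), *Psme2* (−0.31) and *Tap2* (−0.28) passed an unadjusted p of 0.05 at a limma adjusted p of 0.895 (2.64% of all probe sets lower). Without both arrays of the large *Actb* difference 11 were lower and 0 passed the unadjusted threshold (1.51%). At 6 ZT the direction was the other, with 12 of the 17 higher in light (median 0.10), 0 of these and 2 of the lower genes passing an unadjusted p of 0.05 (5.56% and 2.97%), *RT1-Db1* with −0.23 and *Tap1* with −0.22 (limma adjusted p = 0.548 and 0.575).

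**Figure D4:**
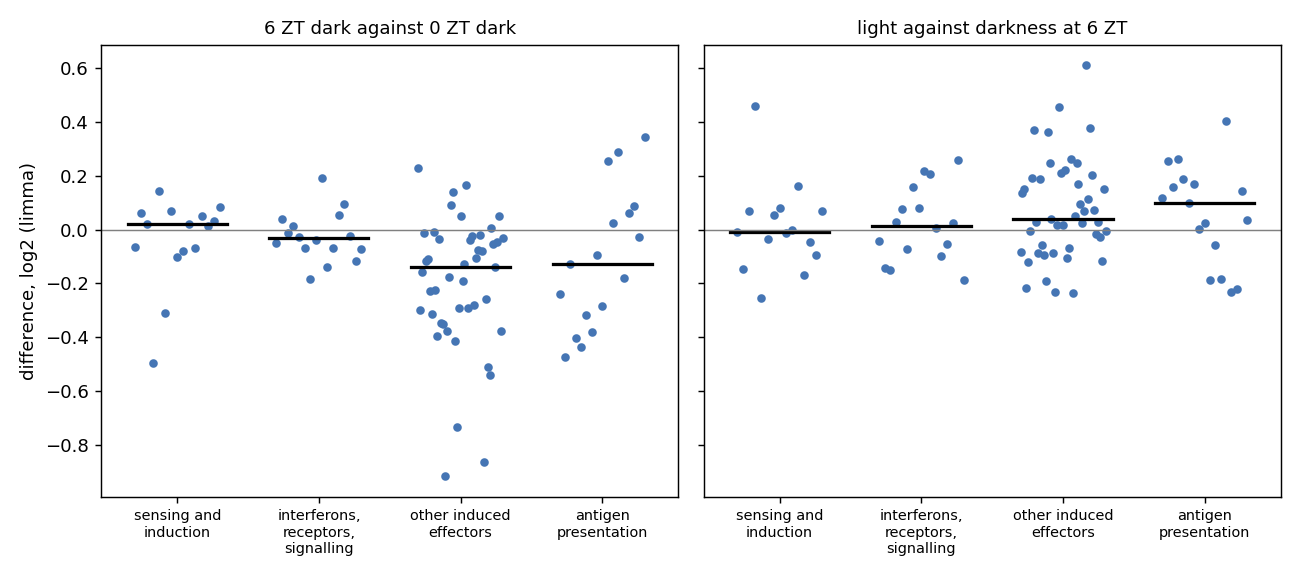
Log2 differences (limma) of the 93 measured genes of the 4 interferon lists, for 6 ZT dark against 0 ZT dark (left) and light against darkness at 6 ZT (right), with each point a gene by its brightest probe set and the black line the median of its list. On the left 38 of the 45 other effectors lie below 0, with a median of −0.14, and on the right their median is 0.04. The left comparison uses the arrays on which *Mx2* and *Ifitm1* were chosen and is a description.

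Markers of the cell types that a retina sample can hold were read beside these values. The summed level of microglia and macrophage markers (13 of 14 measured), in log2 units, was 12.05 to 12.8 at 0 ZT dark, 11.97 to 12.67 at 3 ZT dark, 12.1 to 12.56 at 6 ZT dark, 11.91 to 12.61 at 3 ZT light and 11.99 to 12.32 at 6 ZT light. These groups overlapped, and the level at 3 ZT dark differed from 0 ZT by −0.09, 0.18 and −0.14 in replicas 1 to 3. By their average, 7 of the 13 markers were lower than at 0 ZT at 3 ZT dark, 9 at 6 ZT dark, 11 at 3 ZT light and 10 at 6 ZT light, by limma 0 of them at an adjusted p of 0.05. Of all probe sets 47.6%, 47.4%, 48.7% and 52.3% were lower in that order. Without both arrays of the large *Actb* difference, 11, 9, 11 and 11 of the 13 markers were lower. Against darkness of the same hour, 8 of the 13 were lower in light at 3 ZT and 12 at 6 ZT. Of all probe sets 49.67% and 51.85% were lower there, and by limma 0 of the markers passed an adjusted p of 0.05. Over the 15 arrays the summed microglia level correlated with *Ifit3* at r = 0.680, with *Isg15* at 0.533, with *Ifitm3* at 0.511, with *Ifitm1* at 0.413 and with *Mx2* at 0.162, and the part of these cells in the values was not tested. The summed level of pigment epithelium markers (5 of 6 measured, *Rpe65*, *Ttr*, *Rgr*, *Tyrp1* and *Pmel*), a tissue that can adhere to the retina when it is taken out, ranged from 15.09 to 15.48 at 0 ZT dark, from 14.54 to 15.25 at 6 ZT dark and from 15.12 to 15.74 at 6 ZT light. It was above darkness at 6 ZT light by 0.99, 0.10 and 0.57 in replicas 1 to 3, the same order of replicas as for *Ifitm1* and *Ifitm3*. Over the 15 arrays it correlated with *Ifitm3* at r = 0.606 and with *Ifitm1* at 0.486. Its part in the light values of the Ifitm genes was not tested. The pigment epithelium level differed from 0 ZT by −0.27, 0.35 and 0.03 at 3 ZT dark and by −0.73, 0.05 and −0.54 at 6 ZT dark.

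The summed level of blood cell markers (5 of 9 measured) was 14.46 in the 6 ZT light array of replica 2 and 11.34 to 13.09 in the other 14, and that array had the lowest *Ifitm1* value of its condition. The lens markers were at 13.21 in the 6 ZT light array of replica 3 against 14.35 to 16.37 elsewhere. The part of these arrays in the light values was not tested. Over the 15 arrays the summed markers ranged from 12.82 to 13.95 for vessel endothelium, from 8.96 to 10.38 for pericytes, from 9.62 to 10.09 for lymphocytes and from 15.43 to 16.03 for Müller glia and astrocytes. Exactly equal values within a replica number occurred in 9 cases over 7 of the 11 probe sets, 5 of them in replica 1, among them *Irf7* at 8.55 in 0 ZT dark, 3 ZT light and 6 ZT dark. The share of all probe sets with such equal values was not counted, so the count is not read as a trait of these genes.

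Without both arrays of the large *Actb* difference, the median log2 difference of the 9 genes from 0 ZT was −0.53 at 3 ZT dark, −0.61 at 6 ZT dark, −0.46 at 3 ZT light and −0.32 at 6 ZT light. At 3 ZT dark *Mx2* was then at −1.31, *Ifitm1* at −1.80, *Ifitm3* at −0.78, *Isg15* at −0.53 and *Ifit3* at −0.66. In light of 3 ZT *Mx2* was at −0.86, *Ifitm1* at −1.25, *Ifitm3* at −0.46, *Isg15* at −0.48 and *Ifit3* at −0.99, and *Irf9* turned from 0.04 to −0.08. Light minus darkness at 3 ZT was 0.33 for *Ifitm3*, 0.06 for *Isg15*, −0.05 for *Mx1* and 0.06 for *Irf9*, and it was 0.46 for *Mx2*, 0.55 for *Ifitm1* and −0.33 for *Ifit3*. Of the 45 other effectors, 37 were lower than at 0 ZT at 3 ZT dark, 39 at 6 ZT dark, 35 at 3 ZT light and 34 at 6 ZT light. Lower at an unadjusted p under 0.05 were 3, 10, 6 and 6 of them in that order (1.01%, 5.58%, 2.94% and 3.67% of all probe sets), and 0 passed the adjusted threshold by limma. *Irf8* stood at −0.56 at 3 ZT light (SE 0.11, limma adjusted p = 0.312). The list values against 0 ZT remain descriptions here, since they rest on arrays used in the choice of *Mx2* and *Ifitm1*.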

How the data were processed

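Retinal RNA was hybridised to Affymetrix RAT230_2 arrays. Per the methods, the authors ran the Robust Multi-array Average (RMA) on the scans, and the deposited log2 values are its background-corrected, normalized summaries per probe set. The software and version are not given in the sources used here. The deposited values were used without further scaling. They hold 31099 probe sets, of which 57 controls were left out, 20826 carry 1 gene symbol, 436 several and 9780 none. The number of arrays, 3 per condition, limits the precision. Members and gene lists were chosen with earlier results of these data known.

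limma 3.58.1 in R 4.3.3 was fitted to all 15 arrays with terms for condition and replica number, since the study compared samples of the same replica number. Deviations from the condition means correlated best with those of the same replica number in 60 of 60 checks (0.241 to 0.797), and equal numbers had similar array medians, so this likeness can be technical. p-values are two-sided and were adjusted by Benjamini-Hochberg over 31042 probe sets with a threshold of 0.05. On simulated data for light against darkness at 6 ZT with 31042 probe sets, 89 of 100 changes of 1 log2 unit and 98 of 100 of 2 log2 units were recovered, with 9 false among 196 calls. The noise was drawn separately for each value, so deviations shared within an array were not simulated. The changed probe sets were drawn from all, so the recovery need not hold for genes of large spread such as *Ifitm1* (SE 0.51). A gene with several probe sets entered counts by its brightest. Summed marker levels are log2 of the sum of the linear values of a list. Likeness is Pearson's r after subtraction of each replica number's mean.

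All 9 genes were named, and from each list up to 4 genes with the smallest p in a comparison described. For *Mx2* and *Ifitm1* the 4 single-symbol probe sets with the highest likeness were named. Alternatives were no replicate block, quantile and cyclic loess normalization, the 40% dimmest probe sets left out, array quality weights (statmod 1.5.0), fits restricted to the compared conditions, all probe sets of a gene, each array left out and both arrays with the largest *Actb* difference left out. The gene lists without these arrays were added after seeing the data. Tables were handled with pandas 2.3.3 and figures drawn with matplotlib 3.10.9. Promoter sequences and gene positions are those of RefSeq for GRCr8, and the array annotation gave the gene symbols.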

Additional observations from a re-analysis of the deposited data

Results flagged for a closer look

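The light effect of *Ifit3* ran in opposite directions at both hours. Light was below darkness in 3 of 3 replicas at 3 ZT and above it in 3 of 3 at 6 ZT, and the effects differed by 0.502 log2 units (SE 0.375, limma adjusted p = 0.784), so the difference did not pass the threshold. Over all 31042 probe sets, 606 (1.95%) showed this pattern of signs. *Ifit3* was dim, and its 6 ZT value was −0.03 without the 6 ZT light array of replica 1.

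The change of *Ifitm3* from 3 to 6 ZT also differed in direction, being downward in 3 of 3 replicas in darkness and upward in 3 of 3 in light. The changes differed by 0.745 log2 units (SE 0.590, limma adjusted p = 0.791), which did not pass the threshold. This pattern of signs was shown by 503 probe sets (1.62%).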

How the results depend on the processing

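In all alternatives run, 0 of the 11 probe sets passed the adjusted threshold in the 5 comparisons tested. Without the replicate block the number was 0 as well. With array quality weights the calls over all probe sets at 6 ZT went from 0 to 1511 higher and 800 lower in light against darkness, and from 0 to 511 higher and 165 lower for 6 ZT light against 0 ZT. At 6 ZT dark against 0 ZT they went from 0 to 3 lower, and at 3 ZT light from 1 lower to 1 higher and 1 lower. The members' lowest adjusted p in light against darkness at 6 ZT was 0.0805 with these weights. The cause was not tested. The median log2 difference from 0 ZT moved from −0.38 (3 ZT dark), −0.50 (6 ZT dark) and −0.54 (3 ZT light) to −0.18, −0.20 and −0.22 without the dimmest probe sets, which takes out *Mx1*, *Mx2*, *Ifitm1* and *Ifit3*. It was −0.53 and −0.61 at 3 and 6 ZT dark without both arrays of the large *Actb* difference, and −0.22 at 6 ZT dark with every probe set. With each array left out in turn it ranged from −0.55 to −0.19 at 3 ZT dark, from −0.63 to −0.21 at 6 ZT dark and from −0.67 to −0.30 at 3 ZT light.

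Single light-dark differences near 0 changed sign. Quantile normalization gave −0.0062 for *Irf7* at 6 ZT and cyclic loess −0.0067 for *Irf7* at 3 ZT. Array quality weights gave 0.12 for *Isg15* and 0.25 for *Ifitm3* at 3 ZT, and −0.0330 for *Isg15* and −0.0603 for *Irf7* at 6 ZT. Without both arrays of the large *Actb* difference, 3 ZT gave −0.0484 for *Mx1*, 0.0568 for *Isg15* and 0.33 for *Ifitm3*. With each array left out in turn, the values at 3 ZT ranged from −0.44 to 0.34 for *Ifitm3*, from −0.0625 to 0.0429 for *Irf7*, from −0.32 to 0.0703 for *Isg15* and from −0.0481 to 0.28 for *Mx1*. At 6 ZT they ranged from −0.0257 to 0.32 for *Ifit3*, from −0.15 to 0.14 for *Irf1*, from −0.13 to 0.13 for *Irf7*, from −0.0570 to 0.31 for *Isg15* and from −0.0571 to 0.0632 for *Mx1*. Of the members' single values under the alternatives, 24 light-dark differences changed sign and 26 differences from 0 ZT moved by more than the replicate spread. The other 1114 include differences from 0 ZT that changed sign within that spread.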
